A study of Homo sapiens with 4 samples.

Results

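The 8 genes described here encode the glucose-sensing transcription factors MondoA (MLXIP) and ChREBP (MLXIPL), their shared partner MLX, and 5 arrestin-fold proteins of the TXNIP family, TXNIP itself and ARRDC1 to ARRDC4. They were chosen by name, with earlier results of these data known. Each is represented by a single row of the deposited table, so 8 of the 22465 measured genes are concerned. The cells were MHCC-LM3, an established human hepatocellular carcinoma line, exposed for 24 h to zerumbone, a ginger sesquiterpene, at 50 µM, or to DMSO, its solvent. There were 2 arrays with zerumbone and 2 with DMSO, all grown in medium with serum. The labels do not say whether replicate arrays hold RNA of separate cultures, so the p-values reflect a spread between samples that may be technical.

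MondoA and ChREBP are basic helix-loop-helix leucine zipper proteins that pair with MLX, accumulate at promoters when glucose 6-phosphate is abundant, and bind the carbohydrate response element, a pair of E-box-like repeats with a short spacer. TXNIP and ARRDC4 are their best known direct targets. TXNIP binds thioredoxin and lowers glucose uptake, and the ARRDC proteins are adaptors that bring ubiquitin ligases of the NEDD4 family to membrane proteins. In liver, ChREBP also drives genes of lipid synthesis and glycolysis.

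Values are log2 expression made by the authors with RMA. The highest value of an array was 19.70 to 19.93, above the usual range of RMA values, so a further step not given in the sources used here is possible, and folds hold on the deposited scale only. Differences are zerumbone minus DMSO, tested with limma over all 22465 genes with Benjamini-Hochberg adjustment, and "rose" and "fell" mark an adjusted p under 0.05. Background level on an array means a value below that array's 95th percentile over 23 antigenomic rows, which was 4.74 and 5.03 on the zerumbone arrays and 4.54 and 5.10 on the DMSO arrays. The median difference of all genes was 0.067. Of 10 measured hepatocyte markers 9 were at background level on every array, and ALB exceeded it on only 1 zerumbone array. Among markers of leukocytes, endothelium, fibroblasts and erythroid cells, CD68 and KDR were above background on all 4 arrays and DCN on 1 DMSO array. CD68, a lysosomal protein of macrophages and other cells, rose by 0.93 (limma adjusted p = 3.62e-04) and KDR, a VEGF receptor, fell by 1.93 (limma adjusted p = 1.28e-04), and the part of other cells in the results was not tested. PTPRC, CD3E, CD14, PECAM1, CDH5, VWF, COL1A1, COL1A2, PDGFRB, HBB and ALAS2 were at background level on every array.

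ARRDC4 rose 14.7-fold, ARRDC3 1.88-fold and ARRDC2 1.69-fold, while MLX fell 2.92-fold and MLXIP 1.54-fold. TXNIP and MLXIPL were at background level on all 4 arrays, and ARRDC1 differed by -0.11 without passing the test. Of the 8 genes, 3 rose and 3, TXNIP among them, were called lower, against a background in which 36.0% of all genes were called, 18.4% higher and 17.7% lower. Of the 11487 genes above background on at least 1 array, 63.7% were called, 30.7% higher and 33.0% lower, and of the 6 such genes here 3 rose and 2 fell. Both zerumbone values lay beyond both DMSO values for 7 of the 8 genes, against 69.9% of all genes and 85.8% of those above background on at least 1 array, MLXIPL being the exception.

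**Figure D1:**
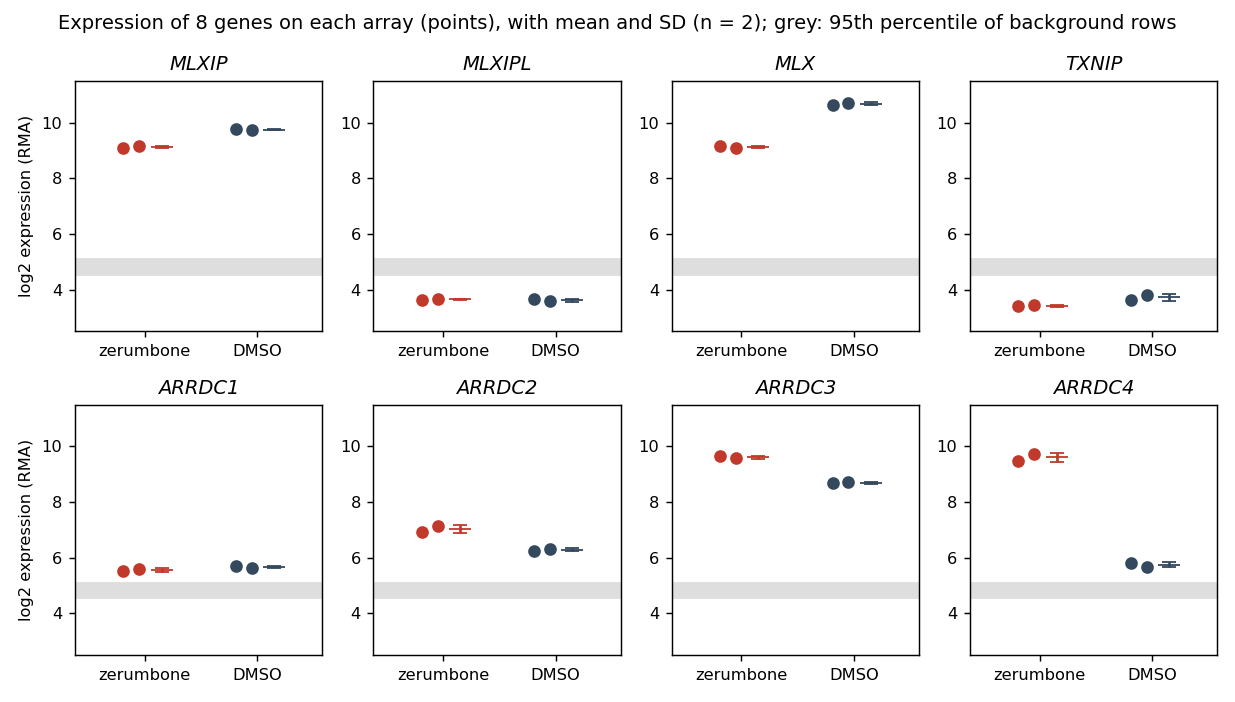
Log2 expression of each of the 8 genes on the 2 zerumbone and the 2 DMSO arrays (points), with the group mean and SD beside them; the grey band spans the 95th percentile of the background rows on the 4 arrays (4.54 to 5.10). ARRDC4 lies at 9.49 and 9.73 with zerumbone and at 5.80 and 5.67 with DMSO, while TXNIP and MLXIPL lie under the band in both groups.

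MLXIP, which encodes the glucose sensor MondoA that resides at the outer mitochondrial membrane and in the nucleus, measured 9.10 and 9.15 on the zerumbone arrays and 9.78 and 9.73 on the DMSO arrays. Both zerumbone values were the lower ones, and the arrays of each group lay close together. The difference was -0.63 (SE 0.063, limma adjusted p = 0.00137), a 1.54-fold fall with a 95% interval of 1.38 to 1.73. Over the 9 alternative settings the adjusted p ranged from 3.92e-04, with dim genes left out, to 0.0211, without DMSO replicate 1.

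MLX, the obligate dimer partner of both sensors, measured 9.17 and 9.11 with zerumbone and 10.65 and 10.72 with DMSO. The groups did not overlap, and the gap was far wider than the spread within either group. The difference was -1.55 (SE 0.066, limma adjusted p = 1.05e-04), a 2.92-fold fall with a 95% interval of 2.59 to 3.29. Only 5.04% of all genes had a larger absolute difference. The fall of MLX exceeded that of MLXIP on every pair of arrays, with zerumbone minus DMSO array differences of -1.61 to -1.48 for MLX and -0.67 to -0.58 for MLXIP.

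MLXIPL, which encodes ChREBP, the liver-enriched sensor, measured 3.62 and 3.66 with zerumbone and 3.65 and 3.58 with DMSO. All 4 values were below the background percentile, and the groups overlapped. The difference was 0.03 with a 95% interval of -0.14 to 0.20 (limma adjusted p = 0.760), and a value at background level sets no size for a change.

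TXNIP, the thioredoxin-interacting arrestin, measured 3.39 and 3.44 with zerumbone and 3.62 and 3.81 with DMSO. The zerumbone values were the lower ones, but all 4 lay under the background percentile. The limma adjusted p was 0.0482 for a difference of -0.30 (SE 0.085), and it ranged from 0.0584 to 0.218 when any single array was left out, so the call rests on having all 4 arrays. At background level this difference is no measure of the size of a change. A weak probe set and a scarce transcript cannot be told apart from these values.

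ARRDC4, a paralog of TXNIP that also lowers glucose uptake, had the largest difference of the 8. It measured 9.49 and 9.73 with zerumbone and 5.80 and 5.67 with DMSO, above background on every array. The groups stood apart by over 3 log2 units on each pair of arrays, with array differences of 3.69 to 4.06. The difference was 3.87 (SE 0.105, limma adjusted p = 5.23e-05), a 14.7-fold rise with a 95% interval of 12.1 to 17.7. It ranked 22 among the rises of all 22465 genes, and 0.236% of genes had a larger absolute difference.

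ARRDC3, an adaptor for the beta-2 adrenergic receptor and integrin beta-4, measured 9.65 and 9.57 with zerumbone and 8.67 and 8.72 with DMSO. Both zerumbone values were higher, with a difference of 0.91 (SE 0.067, limma adjusted p = 4.79e-04) and a 95% interval of the fold from 1.67 to 2.13. ARRDC2, a less studied adaptor of the same family, measured 6.94 and 7.14 with zerumbone and 6.25 and 6.32 with DMSO. Its zerumbone values were also the higher ones, with a difference of 0.76 (SE 0.091, limma adjusted p = 0.00259) and a fold interval of 1.44 to 1.99. The array differences of ARRDC3 (0.85 to 0.98) and ARRDC2 (0.62 to 0.89) overlapped each other and lay well under those of ARRDC4.

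ARRDC1, which recruits the ESCRT protein TSG101 to bud vesicles from the plasma membrane, measured 5.51 and 5.60 with zerumbone and 5.69 and 5.63 with DMSO. The zerumbone values were slightly lower without overlap, but the difference of -0.11 had a 95% interval of -0.28 to 0.07 (limma adjusted p = 0.304). Within the family, 3 of the 5 arrestin genes rose, 1, TXNIP, was called lower at background level and 1 was not called. Of all genes, 18.4% were called higher and 17.7% lower.

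**Figure D2:**
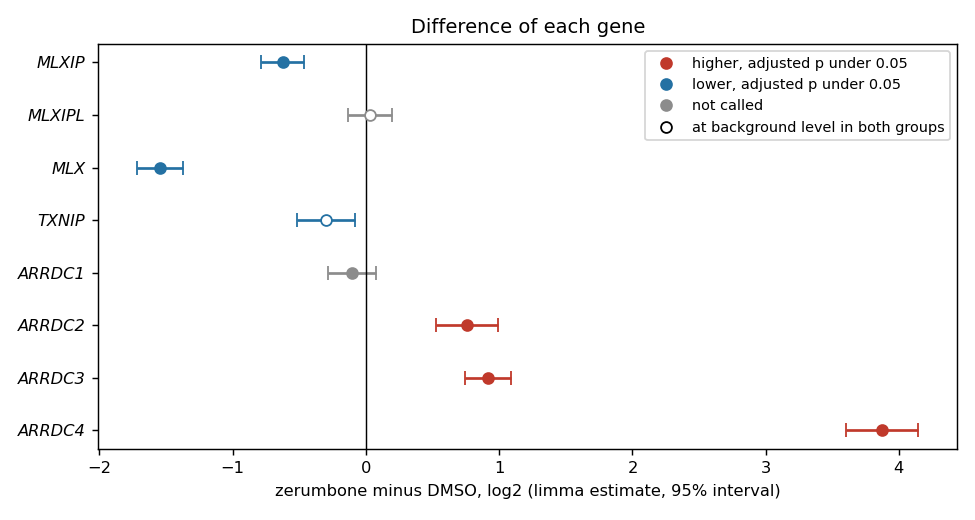
Zerumbone minus DMSO difference of each of the 8 genes on the log2 scale, with the 95% interval of the limma fit; open points are at background level in both groups. ARRDC4 (3.87) stands far from ARRDC3 (0.91) and ARRDC2 (0.76), and MLX (-1.55) lies below MLXIP (-0.63).

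The promoters of TXNIP, ARRDC4 and MLX are shown because TXNIP and ARRDC4 are both known targets of MondoA, ARRDC4 being the gene with the largest difference and TXNIP one at background level, and because MLX had the largest fall of the 8. Each sequence is the 250 bases before the start annotated by RefSeq on GRCh38.p14, read 5′ to 3′ on the gene's strand. Capitals mark matches to the E-box CACGTG, the tandem repeat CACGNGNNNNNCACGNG (in which N is any base) and the CCAAT box CCAAT or its reverse complement ATTGG. The windows are chr1:145996580-145996829 (minus strand), chr15:97960453-97960702 (plus strand) and chr17:42566850-42567099 (plus strand).
TXNIP: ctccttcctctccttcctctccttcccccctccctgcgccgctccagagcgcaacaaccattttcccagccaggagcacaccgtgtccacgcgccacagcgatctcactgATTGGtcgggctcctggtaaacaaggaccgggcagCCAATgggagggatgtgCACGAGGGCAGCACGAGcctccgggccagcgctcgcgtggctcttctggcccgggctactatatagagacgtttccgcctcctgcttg
ARRDC4: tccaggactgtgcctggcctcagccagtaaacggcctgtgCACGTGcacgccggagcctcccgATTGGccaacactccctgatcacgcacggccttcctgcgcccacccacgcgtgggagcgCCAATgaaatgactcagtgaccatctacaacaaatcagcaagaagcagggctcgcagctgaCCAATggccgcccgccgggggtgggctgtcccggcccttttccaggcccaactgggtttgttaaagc
MLX: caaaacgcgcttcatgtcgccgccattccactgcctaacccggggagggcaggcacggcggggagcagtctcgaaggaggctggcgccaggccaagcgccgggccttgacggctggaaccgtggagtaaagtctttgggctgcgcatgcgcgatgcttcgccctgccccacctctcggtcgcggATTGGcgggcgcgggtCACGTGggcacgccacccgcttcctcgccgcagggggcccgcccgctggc

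TXNIP holds the tandem repeat as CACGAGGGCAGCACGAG, beginning 88 bases before its start, with CCAAT boxes 140 and 105 bases before it. The tandem repeat occurred in 16 of 35116 promoter windows of the same length (0.0456%), and TXNIP was the only one of the 8 genes with it. ARRDC4 holds a CACGTG 210 bases before its start and 3 CCAAT boxes, and MLX a CACGTG 50 bases before its start and 1 CCAAT box. CACGTG occurred in 6.34% of all windows and CCAAT in 32.0%.

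Searched on both strands, at least 1 CCAAT was present in 7 of the 8 genes, all but MLXIPL, counting every annotated start. Counted by gene in the same way, 6097 of the 15247 measured genes with a promoter window held a CCAAT. The AP-1 site TGACTCA was found in ARRDC4 alone, 119 bases before the start, and in 4.20% of all windows. Neither the ATF4 and C/EBP composite element TGATGNAAT (0.888% of windows) nor the heat shock element GAANNTTCNNGAA (0.441%) was found in these windows of the 8 genes. In all, 12 motifs were tried on these windows, so single matches are to be read against the shares given. Those shares are of single windows, whereas the 8 genes have 11 windows. The other 6 were the E-box form CACGNG, present in TXNIP, ARRDC2, ARRDC3, ARRDC4 and MLX (26.7% of all windows), the looser tandem repeat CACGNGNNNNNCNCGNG, in TXNIP only and over the same bases as the tandem repeat above (0.424%), the forkhead site GTAAACA, in TXNIP and ARRDC3 (2.98%), the cyclic AMP response element TGACGTCA, in MLXIP (1.65%), and, in none of the 8, TGATGCAA (0.772%) and GAANNTTC (5.78%), which is contained in the heat shock element. In ARRDC3 the CACGNG and GTAAACA matches lie in the window of its second start. A match describes letters only, and a missing match says only that those letters are absent from this window.

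**Figure D3:**
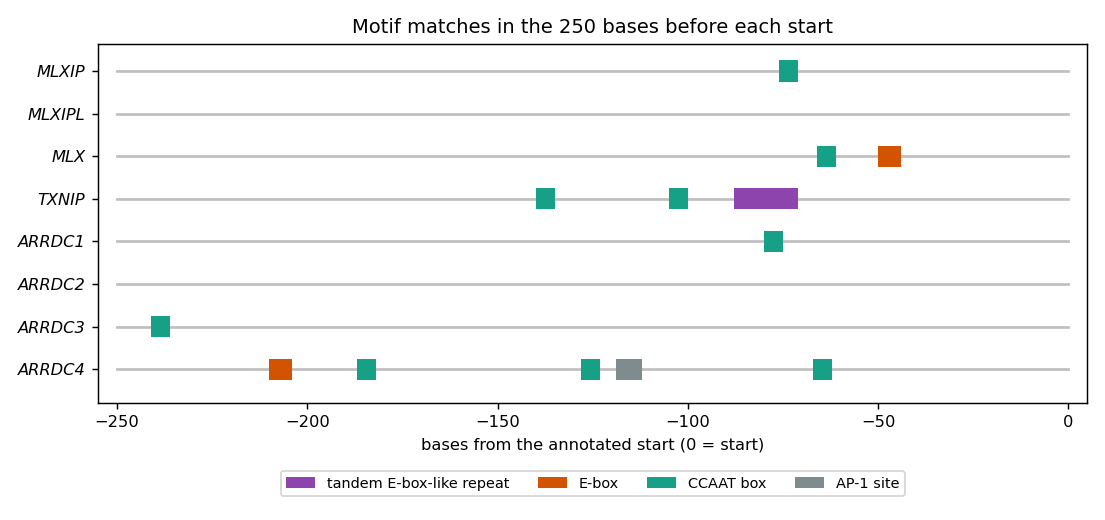
Motif matches on either strand in the 250 bases before the outermost annotated start of each gene, in bases from the start. TXNIP alone carries the tandem repeat, ARRDC4 and MLX each carry a CACGTG, and ARRDC2 has its CCAAT at a second start that is not drawn.

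Expression of genes in the MLX, MAX and MYC network moved in both directions. All 5 measured genes of this network were called, 3 higher and 2 lower. All 5 were above background on at least 1 array. Of the 11487 genes for which this held, 63.7% were called, 30.7% higher and 33.0% lower. The median difference was 0.78 against 0.067 for all 22465 genes, of which 10978 were at background level in both groups. The counts of the lists below are to be read against the same shares, or 36.0% over all genes. MXD1, a repressor that dimerises with MAX or MLX, measured 12.04 and 12.18 with zerumbone and 9.24 and 9.43 with DMSO, a difference of 2.77 (limma adjusted p = 7.55e-05). MAX (0.81) and MGA (0.78) also rose. MNT, another repressor that can pair with MLX, fell by 0.62, and MYC was called lower at -0.40, a call that was lost without DMSO replicate 1 (adjusted p = 0.0738) or DMSO replicate 2 (adjusted p = 0.0600).

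Among genes reported as targets of MondoA or ChREBP, TXNIP and ARRDC4 not counted, 10 of 22 measured genes fell and 0 rose in limma, where none was higher at an unadjusted p under 0.05 either. Of the 12 others, 10 were at background level in both groups, including PKLR, the liver pyruvate kinase and classic ChREBP target, at 4.08 and 4.01 with zerumbone and 3.88 and 3.97 with DMSO. KLF10 (0.06) and ME1 (0.06) were above background and did not pass. The 10 that fell were among the 12 listed genes above background on at least 1 array. Of all 11487 such genes 33.0% were lower and 30.7% higher, and of all genes 17.7% and 18.4%. The median of the list, which includes the genes at background level, was -0.05.

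The largest falls in this list were in lipid synthesis. FASN, the fatty acid synthase, differed by -4.32, ELOVL6, a fatty acid elongase, by -2.56, SCD, the stearoyl desaturase, by -2.25 and ACACA, an acetyl-CoA carboxylase, by -1.89 (limma adjusted p from 3.71e-05 to 1.73e-04). These 4 genes are also targets of SREBP-1. ACLY (-0.91), TKT (-1.60), LDHA (-1.41) and PFKFB3 (-0.58) of this list fell too. The part of MondoA, ChREBP or SREBP-1 in these falls was not tested. MTTP, a lipid transfer protein at background level with zerumbone, fell at least 1.48-fold. ACACB was called lower at -0.32, a call that was lost without either DMSO array or zerumbone replicate 2 (adjusted p from 0.0526 to 0.109). ARRDC4 differed in direction from every called gene of this list.

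Genes that set the supply of glucose 6-phosphate, the metabolite to which the sensors respond, were called in 5 of 11 cases, 2 higher and 3 lower. SLC2A1, a glucose transporter and a cargo of TXNIP, measured 10.51 and 10.48 with zerumbone and 11.32 and 11.37 with DMSO, a fall of 0.85 that passed in limma (adjusted p = 4.70e-04). HKDC1, a hexokinase-like enzyme, rose by 0.67. GCKR, the glucokinase regulator under background on 1 DMSO array, was called higher, which was lost without DMSO replicate 2 (adjusted p = 0.0766). HK1 (-0.32) and SLC37A4, the glucose 6-phosphate carrier, were called lower. SLC37A4 was above background on 1 DMSO array only. With the background percentile in place of dimmer zerumbone values its fold bound was 0.82, which sets no fall. Neither call held with any single array left out. The difference then ran from -0.37 to -0.27 for HK1 and from -0.30 to -0.23 for SLC37A4. G6PC3 (0.03) did not pass, and 5 genes, HK2, HK3, SLC2A2, SLC2A3 and G6PC1, were at background level in both groups.

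**Figure D4:**
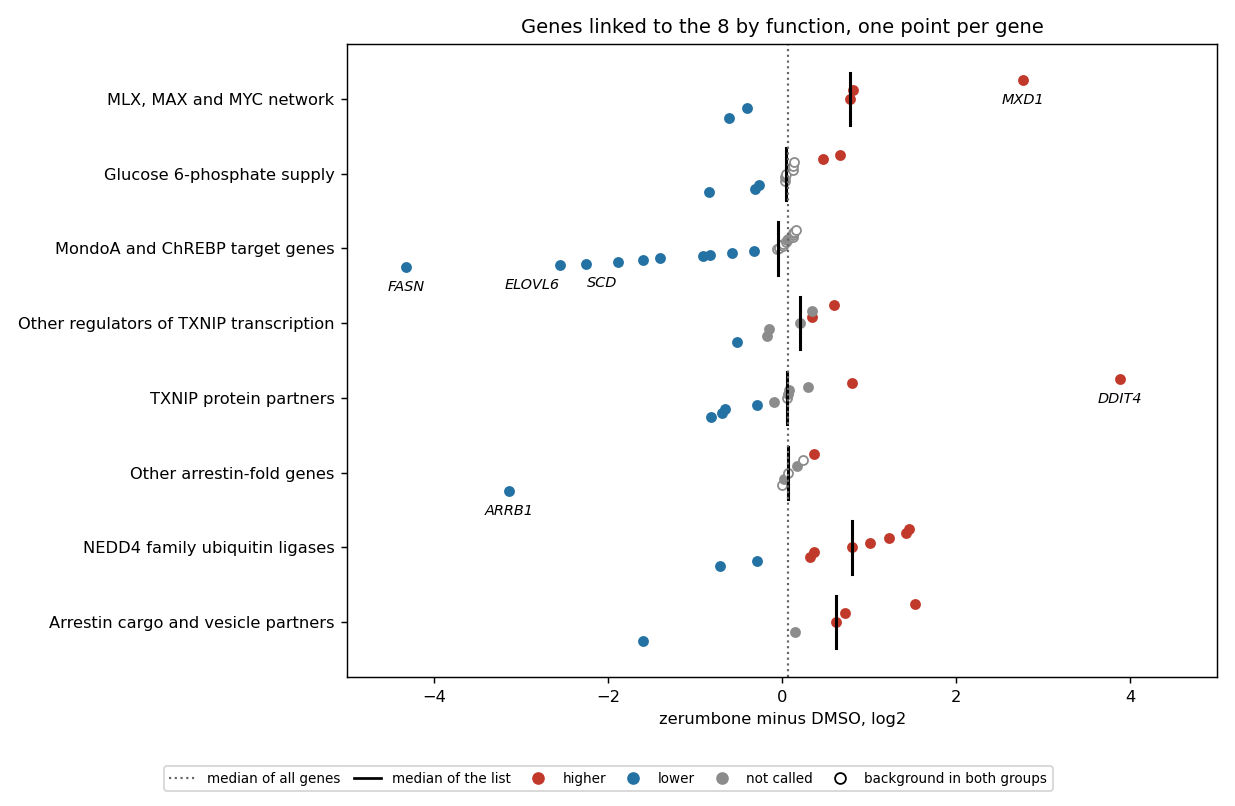
Zerumbone minus DMSO difference (log2) of each measured gene in 8 lists linked to the 8 genes by function; black bars are list medians and the dotted line is the median of all genes (0.067). No called gene of the MondoA and ChREBP targets is higher, whereas 7 of 9 NEDD4 family ligases are. That target list leaves out TXNIP and ARRDC4, of which ARRDC4 rose by 3.87. Of all genes above background on at least 1 array, 30.7% are higher and 33.0% lower.

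Of 11 measured genes whose proteins bind or regulate TXNIP, 2 rose and 4 were called lower. DDIT4, also known as REDD1, which forms a complex with TXNIP, measured 10.65 and 10.40 with zerumbone and 6.46 and 6.84 with DMSO, a difference of 3.88 (limma adjusted p = 9.25e-05). ITCH, the ubiquitin ligase that degrades TXNIP, rose by 0.80. KPNA2, an importin, fell by 0.82, TXN2, the mitochondrial thioredoxin, by 0.69 and PRKAA1, a catalytic subunit of AMPK, by 0.66. TXN, the cytosolic thioredoxin that TXNIP inhibits, differed by -0.10 with a 95% interval of -0.29 to 0.10, and TXNRD1, its reductase, was called lower at -0.30 but not without either DMSO array or zerumbone replicate 1 (adjusted p from 0.0651 to 0.131).

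Of 7 measured regulators of TXNIP transcription other than MondoA, 2 were called higher and 1 lower. FOXO3, a forkhead factor, measured 8.17 and 8.35 with zerumbone and 7.72 and 7.62 with DMSO (difference 0.59). NFYC, a subunit of the CCAAT-binding factor NF-Y, differed by 0.34, and FOXO1 by -0.52. These calls were fragile, while the differences of the 3 genes kept their direction. Without DMSO replicate 2 none of the 3 held, with differences of 0.54 for FOXO3, 0.30 for NFYC and -0.51 for FOXO1. Without DMSO replicate 1, NFYC (difference 0.37) and FOXO1 (-0.53) were lost. Without zerumbone replicate 1 NFYC was lost (difference 0.30), while NFYB, another NF-Y subunit, passed (0.55). Fewer of all genes passed whenever an array was left out.

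NEDD4 family ubiquitin ligases, which bind the ARRDC proteins, were called in all 9 cases, 7 higher and 2 lower. Their median difference was 0.80. All 9 were above background on at least 1 array. Of the 11487 genes above background on at least 1 array, 63.7% were called, 30.7% higher and 33.0% lower. SMURF2 (1.45), NEDD4L (1.42), WWP1 (1.22) and NEDD4 (1.01) rose most. NEDD4 measured 11.12 and 11.30 with zerumbone and 10.21 and 10.19 with DMSO, with both zerumbone values higher. HECW2 fell by 0.72. Of the smaller differences, HECW1 (0.32) did not pass once any array was removed (adjusted p from 0.0563 to 0.143), SMURF1 (0.37) without either DMSO array (0.0713 and 0.0772), and WWP2 (-0.29) without either DMSO array or zerumbone replicate 1 (adjusted p from 0.109 to 0.200), which leaves 1 lower.

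Among other genes of the arrestin fold, ARRB1, beta-arrestin 1, measured 6.54 and 6.51 with zerumbone and 9.65 and 9.68 with DMSO, and fell by 3.14 (limma adjusted p = 3.71e-05). VPS26A, an arrestin-fold subunit of retromer, was called higher at 0.36, which was lost without either DMSO array or zerumbone replicate 2 (adjusted p up to 0.110). In those cases 0 genes of this list were higher in limma, although 3 were at an unadjusted p under 0.05 with all arrays. The other 5 of 7 measured genes did not pass, 3 of them at background level in both groups. Of 5 measured partners in vesicle budding and cargo sorting, VPS4B (1.53), HGS (0.72) and TSG101 (0.61) rose, all parts of the ESCRT machinery, while VPS4A, the paralog of VPS4B, did not pass at 0.15 (limma adjusted p = 0.134). ITGB4, the integrin cargo of ARRDC3, fell to 7.31 and 7.25 with zerumbone, against 8.86 and 8.91 with DMSO. Without DMSO replicate 2, TSG101 no longer passed (adjusted p = 0.0543).

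Profiles across the 4 arrays were compared with that of ARRDC4 by root mean square distance after centring each gene on its own mean. Genes with microRNA, small RNA, LOC, LINC, FLJ or open-reading-frame names were left out. Among the rest, the nearest profile was that of KBTBD8, an adaptor of a cullin ubiquitin ligase (distance 0.088 log2 units). It was followed by ASNS, the asparagine synthetase (0.100), DNAJB1, an HSP40 chaperone (0.117), HELB, a DNA helicase (0.125), and ATF3, a stress-induced transcription factor (0.143). KBTBD8 measured 9.30 and 9.66 with zerumbone and 5.64 and 5.71 with DMSO. With 2 arrays a group, this likeness rests mainly on the size of the difference, which was 3.73 to 4.04 for these 5 genes.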

How the data were processed

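RNA of 4 MHCC-LM3 samples, 2 with zerumbone and 2 with DMSO, was profiled on 1 array each. The values the authors deposited are log2 expression, made with RMA in Affymetrix Expression Console per the submitters' processing notes. No version is named, and the genome build is not given in the sources used here. RMA evens out the distributions of the arrays, so a shift shared by most genes would not be seen. The design text names an exon array, but row names and annotation are those of a transcriptome array.

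Of 67528 transcript clusters, 23781 carry 1 gene symbol. The brightest row of each gene was kept, giving 22465 genes, and each of the 8 genes had 1 row. Groups came from the source labels, and replicate numbers follow the order of deposit. The number of arrays limits the precision. All genes were fitted together with limma 3.58.1 (lmFit, eBayes) in R 4.3.3, two-sided and without covariates, on 2 residual and 2.88 prior degrees of freedom. In data simulated for these 22465 genes with 200 changed, the fit found 2%, 68%, 98% and 100% of changes of 0.25, 0.5, 1 and 2 (log2) with limma's moderated spreads, and 0%, 4%, 56% and 80% with the raw spreads of 2 arrays a group. The raw spreads were simulated first, missed the recovery set for the check, and were replaced by the moderated ones. The Benjamini-Hochberg cut depends on the share of changed genes, and 8091 of the 22465 genes were called in the data. The recovered shares are therefore not those of the fit to the data. By exact permutation, 2 against 2 arrays cannot go below a p of 0.333. A fold against a group at background is a lower bound, with the background percentile in place of a dimmer value. Lists are described by counts and medians, with no set test.

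The 8 genes and the 13 lists (110 genes, 98 with a row of their own) were chosen with earlier results of these data known. The text names the 8 genes, up to 4 called genes of each list with the largest difference, genes in counts of 5 or fewer, and the 5 profiles nearest to the gene that changed most. Other named genes and the motifs were chosen after values were seen. Promoter windows are those of RefSeq on GRCh38.p14, matched by symbol for all 8 genes. Alternatives were median centring, cyclic loess, a filter on dim genes, an intensity trend, the mean of a gene's rows, and leaving out each array. Plots used matplotlib 3.10.9 and Python 3.11.15.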

Additional observations from a re-analysis of the deposited data

How the results depend on the processing

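No paired analysis was possible because the labels give no replicate numbers. Across 9 alternatives the calls of ARRDC4, ARRDC3, ARRDC2, MLX and MLXIP kept their direction and side of the threshold, with ARRDC4 between 3.75 and 3.99 and MLX between -1.61 and -1.51, and ARRDC1 stayed uncalled. TXNIP and MLXIPL have no value with dim genes left out. TXNIP was called under the 4 other alternatives that keep all arrays and in none that leave one out, where its difference ran from -0.39 to -0.21. The difference of MLXIPL was -0.045 after cyclic loess (adjusted p = 0.663) and ran from -0.0045 to 0.062 with an array left out, uncalled throughout. The number of genes higher was 4125. With 1 array left out it ran from 2557 without DMSO replicate 1 (2687 without DMSO replicate 2) to 3822, and under the alternatives that keep all arrays from 3740 to 4133. Of 144 counts of list genes under the alternatives, 17 moved by over 1.5 times, all with an array left out. Where 1 array is left out, the lone array of its group is assumed to vary like the others. Cyclic loess moved the median of all genes by -0.067. Levels under background limit TXNIP and MLXIPL.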

Other observations

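The rare tandem repeat of the TXNIP promoter pointed to 15 other measured genes, a set chosen after the values of the 8 genes were seen. Of the 16 genes in all, 5 rose and 2 were called lower, RAN and TXNIP. This is 31.2% higher and 12.5% lower, against 19.2% and 20.7% of the 15247 measured genes with a promoter in the table. Of the 11487 genes above background on at least 1 array, 30.7% were higher and 33.0% lower. TXNIP, the source of the repeat, is counted here although it was at background level in both groups. So were ADAD2, MYL5, PNLDC1, POM121L12 and RCN3. The shares of so few genes were not tested. GFPT1, the first enzyme of the hexosamine pathway that branches from glycolysis, measured 16.29 and 16.44 with zerumbone and 14.70 and 14.83 with DMSO, a 3.02-fold rise in limma (adjusted p = 1.92e-04). P4HA1, a collagen prolyl hydroxylase, measured 12.25 and 12.49 with zerumbone and 10.01 and 10.27 with DMSO, a 4.68-fold rise (limma adjusted p = 2.38e-04).

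STX12, an endosomal syntaxin, rose 2.22-fold, KCTD5, a cullin adaptor, 2.01-fold and AKAP10, an anchor of protein kinase A, 1.37-fold. The call of AKAP10 was lost without DMSO replicate 1 (adjusted p = 0.0827). RAN, the small GTPase of nuclear transport, measured 11.22 and 11.00 with zerumbone and 11.77 and 11.82 with DMSO, a 1.61-fold fall. The median difference of the 16 genes was 0.040, against 0.058 for the genes with a promoter in the table.

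The 1434 measured genes with a CACGTG in the same window were called higher in 21.3% and lower in 24.6% of cases, with a median difference of 0.041.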
